A study of Drosophila melanogaster with 8 samples.

Results

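Ageing of the adult Drosophila melanogaster heart was compared in 2 crosses, to find the transcripts that moved the same way in both. The comparison set 4 arrays of hearts aged to 5 weeks against 4 arrays of hearts aged to 1 week, with the cross as a covariate, so all 8 arrays of the series entered it. Of 18952 probe sets, 18769 were tested, the others being array controls. The crosses were GMH5xyw, the control, and GMH5xFOXO, with 2 arrays at each age. GMH5 is a driver line for the heart and both crosses carry it, so every group has the driver and none is a plain wild type. The FOXO cross adds a transgene of the transcription factor FOXO in the cells where the driver is active. All flies are labelled adult and female. Heart tubes were laid open, freed of fat and pericardial cells by suction, and their RNA was amplified before labelling. Values are log2 signals, so a difference of 1 is a 2-fold change.

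The fly heart is a muscular tube that pumps hemolymph. Its cells need calcium cycling, contractile filaments and mitochondrial energy supply, and with age its rhythm and contraction become less regular. FOXO acts downstream of insulin signalling and switches on genes of stress resistance and protein quality control. The fly's age-related transcripts are known to include innate immune effectors and detoxifying enzymes on the rising side and energy metabolism on the falling side.

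Array medians over the tested probe sets lay between 6.05 and 6.43. Replicates correlated at 0.995 to 0.997, except for the FOXO 1-week pair, which correlated at 0.963 and differed by more than 1 in 2231 probe sets. Of 21 heart and muscle markers 15 were measured by a probe set with a single symbol, and Hand, a heart transcription factor, lay between 13.04 and 13.33 on all arrays. pnr, another cardiac factor, lay between 6.56 and 7.37.

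Several arrays went against the female label. The 5 transcripts listed as specific to females encode yolk proteins (Yp1, Yp2, Yp3) and enzymes of female pheromone synthesis (Fad2, eloF). Their median signal was 6.75 and 6.59 in young control hearts and 6.18 in the second of the young FOXO samples. In the first of these it was 13.44, and on the 4 arrays at 5 weeks it lay between 13.03 and 13.33. These transcripts were thus low on 3 of the 4 young arrays and high on all old ones. The 33 transcripts of late spermatogenesis stood at 8.89 and 8.93 in young control hearts, at 10.03 and 9.96 in old FOXO hearts, and between 5.30 and 6.32 on the other 4 arrays. The 24 transcripts of oocytes and nurse cells reached a median of 10.35 in that first young FOXO sample, and on the other 7 arrays it was 5.65 or lower. In the summed signal the female-specific list ranged from 9.88 to 15.67 at 1 week and from 15.43 to 15.61 at 5 weeks, the spermatogenesis list from 11.98 to 14.64 and from 12.51 to 15.35, and the oocyte list from 13.99 to 15.65 and from 13.84 to 13.99. The lowest value on each array lay between 2.14 and 2.35, so a signal above 0 does not show that a transcript was present. The part of these 3 lists in the results below was not tested, and the covariate fits given with the counts could not test it, as stated there.

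**Figure D1:**
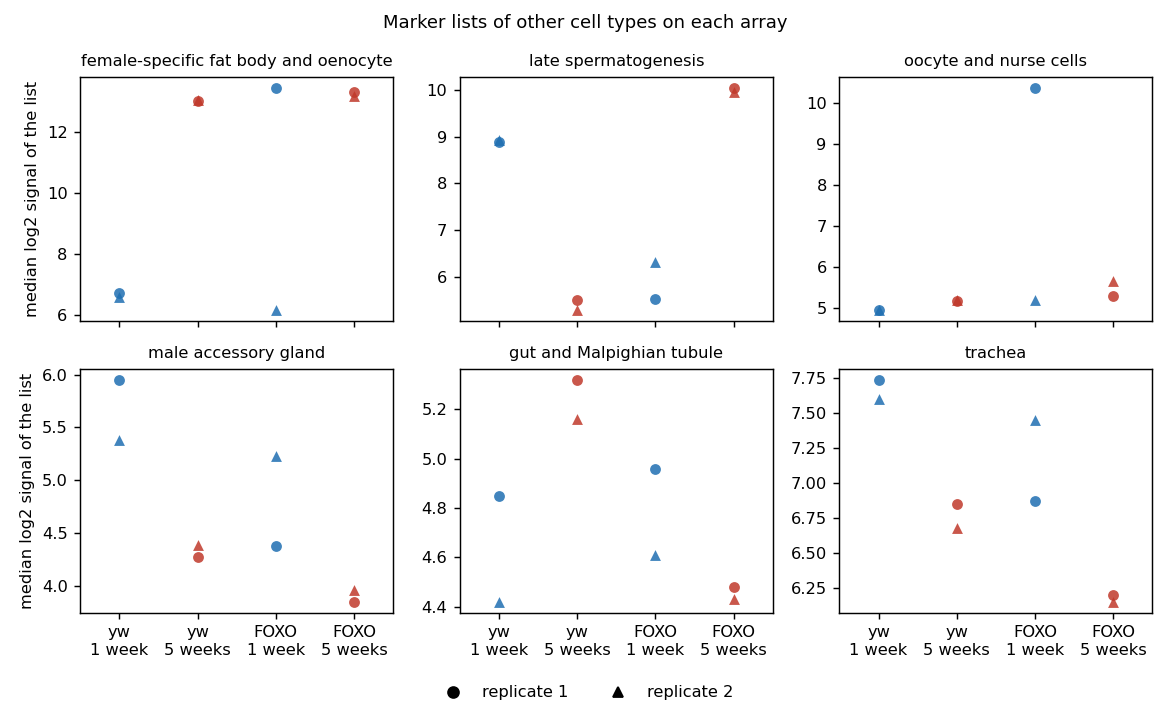
Median log2 signal (vertical axis) of 6 marker lists of other cell types on each array, by group (horizontal axis), with blue at 1 week, red at 5 weeks, circles for replicate 1 and triangles for replicate 2. Female-specific transcripts were low, between 6.18 and 6.75, on 3 of the 4 arrays at 1 week, and oocyte transcripts were high, at 10.35, on FOXO 1-week replicate 1 alone.

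Over both crosses, 198 probe sets (1.05% of those tested) rose with age and 154 (0.821%) fell, by limma's moderated test with a Benjamini-Hochberg adjusted p under 0.05. Both directions together came to 352, or 1.88%. The median change was 1.29 among those that rose, of which 137 rose at least 2-fold and 33 at least 4-fold. It was -1.06 among those that fell, of which 87 fell at least 2-fold and 11 at least 4-fold. In all of them both old arrays lay on the same side of both young ones in each cross. Over all probe sets this held for 17.1%, with 7.82% higher and 9.27% lower. The age change differed between the crosses, by the test of the difference, in 14 of those that rose and 3 of those that fell, against 9.41% of all probe sets. The remaining 184 higher (0.98%) and 151 lower (0.805%), 335 or 1.78% in all, are called shared here.

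The choice of shared probe sets leaves out those whose change differed between the crosses, so that like changes in the crosses follow from it. Those higher at 5 weeks had a median change of 1.23 in the control cross and 1.19 in the FOXO cross, and those lower had -0.97 and -1.14. Taking for each gene its brightest probe set, they stand for 135 genes higher and 114 lower. The higher ones went from a median signal of 7.16 at 1 week to 8.93 at 5 weeks, and the lower ones from 8.41 to 7.15. Between the FOXO 1-week replicates, replicate 1 was the nearer to the old arrays in 64 of the 184 higher and in 118 of the 151 lower probe sets.

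Changes that passed the same way in each cross on its own were a minority of the calls of either cross. In the control cross 440 probe sets (2.34%) rose and 857 (4.57%) fell, and in the FOXO cross 1769 (9.43%) rose and 1092 (5.82%) fell. These come to 1297 (6.91%) and 2861 (15.2%). Of these, 939 changed in both, 153 higher in both (0.815%), 88 lower in both (0.469%) and 698 opposite ways (3.72%). The 241 of like direction were 18.6% of the control calls and 8.42% of the FOXO calls. The age change differed between the crosses in 1766 probe sets, 1366 more positive in FOXO hearts (7.28%) and 400 more negative (2.13%). Spermatogenesis transcripts were among these, with 27 of 33 passing that test, a median change of -2.97 in the control cross and 3.41 in the FOXO cross, and 0 passing over both crosses.

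**Figure D2:**
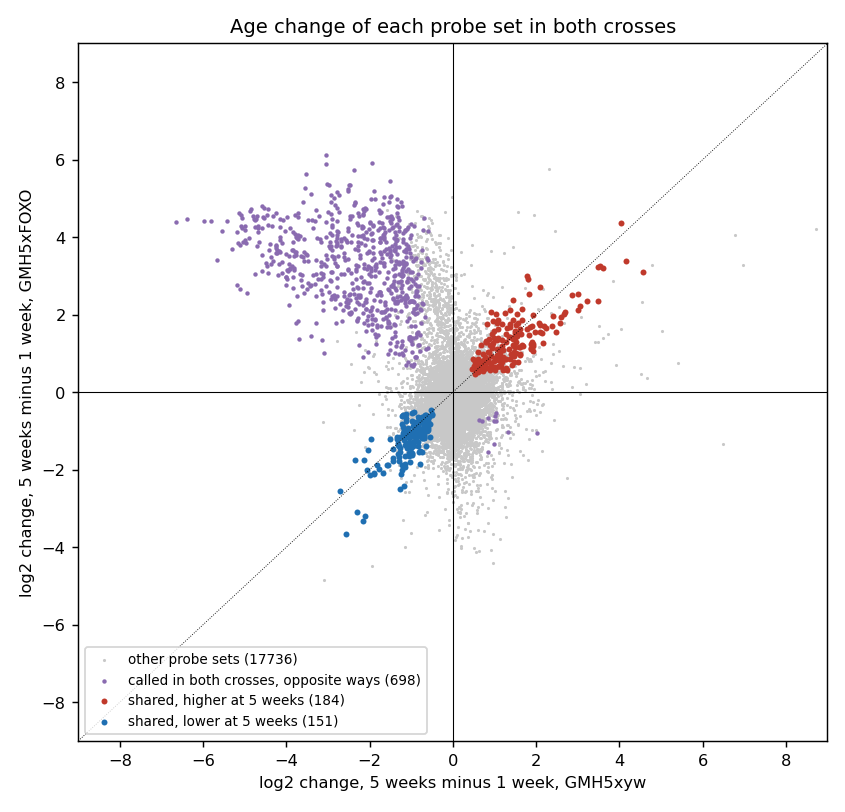
Log2 change from 1 to 5 weeks of each of 18769 probe sets in GMH5xyw (horizontal axis) and GMH5xFOXO (vertical axis). The 184 shared higher probe sets (red) and 151 shared lower ones (blue) lie along the dotted line of equal change, as their choice requires, while 698 probe sets that passed the test in each cross alone with opposite signs (purple) lie in the other quadrants.

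The number of shared genes leaned on single arrays. Leaving out FOXO 1-week replicate 1 raised the shared count from 335 to 851, and 330 of the 335 still passed the test over both crosses. Leaving out any 1 array outside the FOXO 1-week pair left between 55, with the first old control array out, and 84, with the second old FOXO array out. The shared counts were 56 and 67 without the first and second young control array, 60 without the second old control array and 78 without the first old FOXO array. None of the 335 changed its sign in any of these fits. Their choice fixes that, because the ages do not overlap in either cross. With the mean of the female-specific transcripts as a covariate, 237 of the 335 still passed. With that of the spermatogenesis transcripts all 335 did. The spermatogenesis transcripts were high in young control and old FOXO hearts and low in the other groups, so their mean carried little of age. All 335 passed as well in the average of the crosses with 1 mean per group. The female-specific transcripts were high on all old arrays and, among young ones, only on FOXO 1-week replicate 1. That array alone thus set them apart from age. Neither fit could test the part of these transcripts in the calls. The female-specific covariate raised the number of probe sets called over both crosses from 352 to 2606, of which 966 rose. Weighting arrays by their noise with limma's arrayWeights raised it to 2463, of which 1341 rose. With these weights the spermatogenesis list had a median change of -1.97, against 0.19 without weights, -2.97 in the control cross and 3.41 in the FOXO cross. The median of the cardiac transcription factors was -0.08, against -0.07 in the control cross. Changes counted with arrayWeights thus leaned toward the control cross and need not be shared by both. List counts given below with either fit stand against these higher levels.

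The genes that rose most in both crosses encoded a detoxifying enzyme, a peptidase, a peptide hormone, immune and antiviral effectors and several genes of unstated function. They were ranked by the smaller of the changes in the crosses. CG4269 had signals of 6.77 and 6.84 in young and 10.85 and 10.81 in old control hearts. In FOXO hearts it had 6.42 and 7.67 when young and 11.36 and 11.46 when old. It was thus 18.4-fold higher at 5 weeks, a log2 change of 4.20 ± 0.26 (SE, 4 arrays per age, adjusted p = 0.00371), and no old array came near a young one.

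Nep2, a neprilysin, which is a metallopeptidase that cleaves small peptides, had 7.68 and 7.47 in young and 11.16 and 11.23 in old control hearts. The FOXO hearts had 7.41 and 7.68 when young and 10.63 and 10.89 when old. The change was 3.42 ± 0.14 (adjusted p = 0.000922), with a gap of about 3 units between the ages in both crosses. GstD5, a delta-class glutathione S-transferase, which couples glutathione to toxic compounds, went from 8.16 and 8.11 to 11.69 and 11.55 in the control cross. In the FOXO cross it went from 6.75 and 7.44 to 10.41 and 10.22, so that its level was lower there at each age while its change was similar (3.35 ± 0.17 over both, adjusted p = 0.00198). The difference of the GstD5 age changes between the crosses was -0.26 (adjusted p = 0.649).

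Nazo, an antiviral effector gene of the fly, had 4.72 and 5.34 in young control hearts and 8.98 and 9.41 in old ones. In FOXO hearts it had 6.86 and 5.60 when young and 9.44 and 9.80 when old, and the change over both crosses was 3.78 ± 0.33 (adjusted p = 0.00698). CAH8, a carbonic anhydrase, rose from 4.01 and 3.98 to 8.38 and 8.76 in control hearts and from 3.78 and 4.66 to 7.44 and 7.22 in FOXO hearts (3.84 ± 0.34). Its young levels were below the array medians. Dh44, the diuretic hormone related to corticotropin-releasing factor, had 4.75 and 5.28 in young and 7.86 and 7.54 in old control hearts. In FOXO hearts it had 3.61 and 3.40 when young and 5.40 and 5.75 when old (2.38 ± 0.20, adjusted p = 0.00666). The FOXO arrays were the lower ones for Dh44 at both ages. Amt, an ammonium transporter, went from 6.71 and 6.78 to 8.77 and 8.93 in the control cross and from 6.95 and 6.70 to 9.27 and 9.79 in the FOXO cross (2.41 ± 0.18).

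AttD, a member of the attacin family of antibacterial peptides, had 7.10 and 7.14 in young and 10.24 and 9.72 in old control hearts. In FOXO hearts it had 5.97 and 7.20 when young and 9.34 and 8.84 when old (2.68 ± 0.29, adjusted p = 0.0108). Whamy, a regulator of actin assembly, rose by 2.79 ± 0.30 and hog by 2.56 ± 0.22. The other genes by this ranking were CG33093 (3.41 ± 0.43), CG32259 (2.91 ± 0.26), CG32079 (2.77 ± 0.25), CG12493 (2.64 ± 0.47) and CG18744 (2.34 ± 0.21). The age change did not differ between the crosses by the test of the difference in any of the 15, as the ranking requires, and it was nearest to doing so for CG32259 (-1.13, adjusted p = 0.058) and CAH8 (-1.47, adjusted p = 0.0813). Of the 15, 11 kept their call in all alternatives. The others lost it without 1 array, AttD with an adjusted p of up to 0.0591, Whamy up to 0.0588, CG33093 up to 0.0831 and CG12493 up to 0.16. AttD lost it without any of the control arrays or FOXO 5-week replicate 1, and Whamy without control 1-week replicate 1, a control 5-week array or FOXO 5-week replicate 1. CG33093 lost it without any array outside the FOXO 1-week pair, and CG12493 without any array other than FOXO 1-week replicate 1. CG12493 also lost it with quantile normalization (0.0626), array medians centred (0.0679) and 1 probe set per gene (0.0503).

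**Figure D3:**
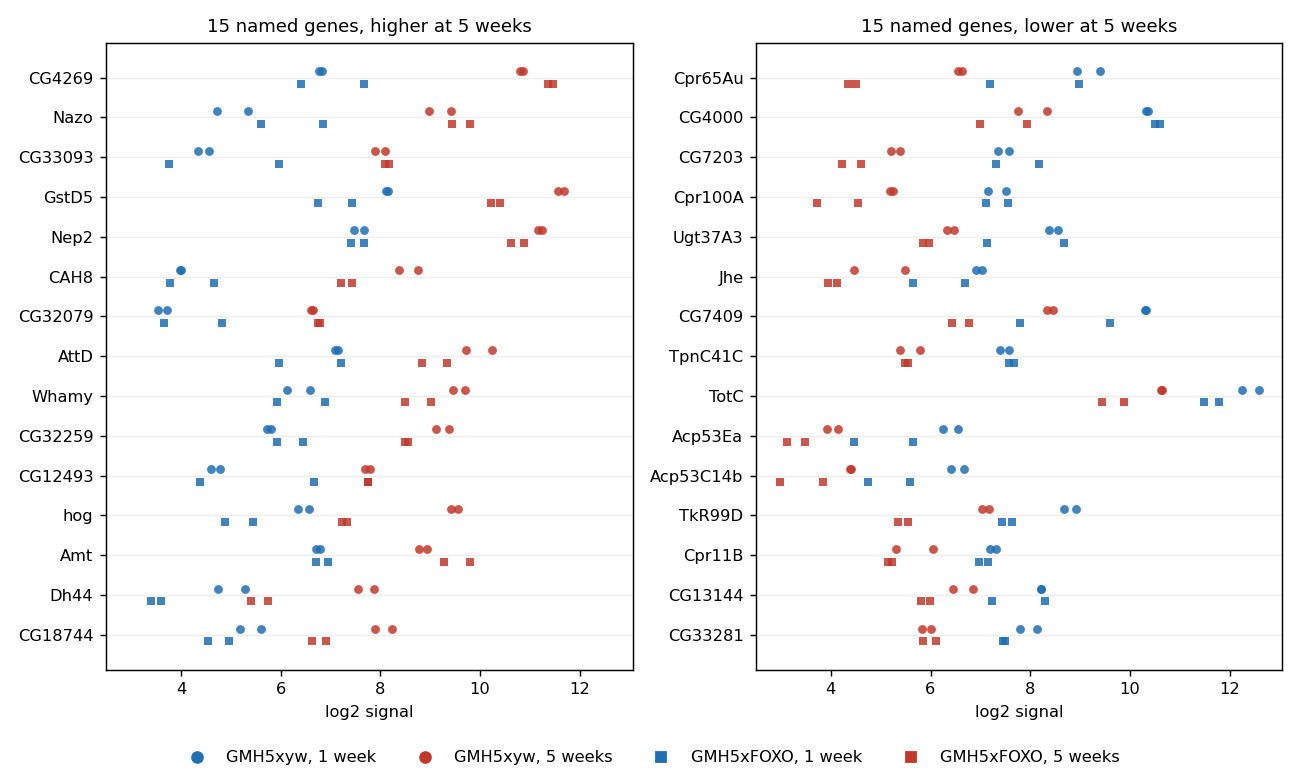
Log2 signal (horizontal axis) of the 15 named genes higher and the 15 lower at 5 weeks on each of the 8 arrays, with blue at 1 week, red at 5 weeks, circles for GMH5xyw and squares for GMH5xFOXO. Within each cross the red points lie on 1 side of the blue ones for every gene, with the largest change over both crosses for CG4269, and GstD5, Dh44 and TkR99D lie lower in GMH5xFOXO at both ages.

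The genes that fell most in both crosses encoded cuticle proteins, a muscle troponin, a stress peptide, enzymes of hormone and xenobiotic turnover, a neuropeptide receptor and seminal fluid proteins. TpnC41C, a troponin C that binds calcium on the thin filament of muscle, had 7.39 and 7.58 in young and 5.38 and 5.78 in old control hearts. In FOXO hearts it had 7.68 and 7.58 when young and 5.49 and 5.54 when old. It was 4.03-fold lower at 5 weeks (-2.01 ± 0.13, adjusted p = 0.00371), and both crosses stood at nearly the same level at each age.

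TotC, a Turandot peptide secreted under stress, went from 12.58 and 12.24 to 10.62 and 10.65 in the control cross. In the FOXO cross it went from 11.48 and 11.78 to 9.43 and 9.88 (-1.88 ± 0.15, adjusted p = 0.00492). TkR99D, a receptor for tachykinin peptides, went from 8.92 and 8.67 to 7.18 and 7.04 in control hearts and from 7.63 and 7.43 to 5.55 and 5.34 in FOXO hearts (-1.88 ± 0.13, adjusted p = 0.00492). Both genes were lower in FOXO hearts at each age and fell by similar amounts in the crosses.

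The widest fall by this ranking was that of Cpr65Au, a chitin-binding cuticle protein, with 9.39 and 8.94 in young and 6.63 and 6.55 in old control hearts. In FOXO hearts it had 7.19 and 8.98 when young and 4.34 and 4.50 when old (-3.12 ± 0.42, adjusted p = 0.0195). The young FOXO replicates differed by more than 1 and still lay above both old arrays. Cpr100A (-2.66 ± 0.29) and Cpr11B (-1.72 ± 0.18), of the same family, fell too. Jhe, the esterase that breaks down juvenile hormone (-2.07 ± 0.29), and Ugt37A3, a UDP-glycosyltransferase (-2.03 ± 0.31), fell as well. Acp53Ea (-2.05 ± 0.28) and Acp53C14b (-1.95 ± 0.26), which are male accessory gland proteins, fell from signals of 6.54 and 6.24, and of 6.67 and 6.40, in young control hearts. In young FOXO hearts they had 4.46 and 5.65, and 4.74 and 5.59. Their signals in old hearts lay between 2.98 and 4.40, far below the array medians. CG7203 (-2.75 ± 0.30), CG4000 (-2.69 ± 0.27), CG7409 (-2.0 ± 0.36), CG33281 (-1.77 ± 0.16) and CG13144 (-1.72 ± 0.24) complete the ranking. A second probe set for CG33281 also fell, by 1.34 (adjusted p = 0.0108).

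Calls in this group were less stable than among the genes that rose most, with TpnC41C, TotC, TkR99D and CG33281, 4 of 15, kept in all alternatives. Without 1 array outside the FOXO 1-week pair, the largest adjusted p was 0.0924 for Cpr65Au, 0.116 for Ugt37A3, 0.108 for Jhe, 0.155 for CG7409, 0.0988 for Acp53Ea and 0.101 for CG13144, and each of these 6 arrays ended the call when left out. It was 0.0926 for Acp53C14b (FOXO 5-week replicate 2 kept it), 0.0591 for Cpr100A (without control 1-week replicate 1, a control 5-week array or FOXO 5-week replicate 1) and 0.0567 for CG7203 (without control 1-week replicate 2, control 5-week replicate 1 or FOXO 5-week replicate 2). CG4000 lost its call only without control 5-week replicate 1 (adjusted p = 0.052) and Cpr11B only without control 1-week replicate 1 (adjusted p = 0.0573). With the female-specific transcripts as a covariate, Cpr65Au (adjusted p = 0.0581), Jhe (0.0693), CG7409 (0.131) and CG13144 (0.0582) did not pass. CG7409 also failed with quantile normalization (0.0639), array medians centred (0.0594) and 1 probe set per gene (0.0512).

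Gene lists were read against all 11982 genes with a probe set, of which 145 (1.21%) rose and 117 (0.976%) fell, with a median change of -0.03. Centring the array medians shifts every age change by the same amount. It took the median of all probe sets from -0.05 to -0.14, so list medians given with it keep their place relative to that median. In a bulk sample, fewer cells of a type and less RNA per cell cannot be told apart.

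Heart muscle lists leaned downward. Of 16 cardiac transcription factors, 2 fell and 0 rose, with a median of -0.40. The list was less even across the crosses than that median, with -0.07 in the control cross, -0.38 in the FOXO cross and 8 of 16 members lower in both. The median was -0.08 with arrayWeights and -0.23 with the female-specific covariate. mid, a T-box factor of heart cell identity, had 8.69 and 8.45 in young and 7.98 and 7.52 in old control hearts, and 8.28 and 8.21 against 7.40 and 6.90 in FOXO hearts (-0.95 ± 0.17, adjusted p = 0.0459). bap, a homeobox factor of visceral mesoderm, went from 9.69 and 9.56 to 8.48 and 8.33 in control hearts and from 8.86 and 9.24 to 8.39 and 8.49 in FOXO hearts (-0.91 ± 0.16, adjusted p = 0.0474). The T-box genes Doc1 (-1.01 ± 0.20, adjusted p = 0.0655) and Doc3 (-1.07 ± 0.22, adjusted p = 0.0702) and the mid paralogue H15 (-0.75 ± 0.19, adjusted p = 0.108) did not pass, though their ages did not overlap in either cross. The calls of mid and bap were narrow. mid lost it without any 1 of the 8 arrays (adjusted p up to 0.157) and bap without any array other than FOXO 1-week replicate 1 (up to 0.164). Neither passed with quantile normalization (0.075 and 0.0822) or the female-specific covariate (0.0584 and 0.14), and mid did not with array medians centred (0.124) or with trend and robust eBayes (0.0525).

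Among contractile proteins the fall was uneven. Of 9 thick filament and titin-like genes, all had a negative change, with a median of -0.31, and sls fell. sls, the titin-like spring of the sarcomere, had 11.19 and 11.02 in young and 9.99 and 10.05 in old control hearts, and 10.27 and 10.82 against 9.44 and 9.78 in FOXO hearts (-1.01 ± 0.15, adjusted p = 0.0284). Obsc, the giant obscurin of the M-band, had -0.93 ± 0.17 (adjusted p = 0.0507). The light chain Mlc1 (-0.20 ± 0.09, adjusted p = 0.344) and paramyosin Prm (-0.33 ± 0.11, adjusted p = 0.209), both bright on every array, did not pass.

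Of 9 thin filament genes TpnC41C alone passed, and the median was -0.10. The troponin T gene up, at 13.33 and 13.37 against 12.99 and 13.02 in control hearts and 13.21 and 13.11 against 12.74 and 12.78 in FOXO hearts, had a change of -0.37 ± 0.08 (adjusted p = 0.0812). The other measured troponin C, TpnC73F (-0.08 ± 0.09), and the actin Act87E (0.09 ± 0.09) did not pass. None of 13 Z-disc genes passed at a median of -0.27, with Actn, the alpha-actinin that anchors thin filaments, at -0.56 ± 0.11 (adjusted p = 0.0538). The call of sls was lost without any 1 array outside the FOXO 1-week pair (adjusted p up to 0.118), with array medians centred (0.0584) and with the female-specific covariate (0.0657).

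Calcium handling and ion channel genes held 3 that fell among 32, with 0 that rose and a median of -0.38. RyR, the channel that releases calcium from the sarcoplasmic reticulum, went from 11.45 and 11.29 to 10.13 and 10.21 in control hearts and from 10.46 and 11.12 to 9.69 and 10.09 in FOXO hearts (-1.05 ± 0.18, adjusted p = 0.0423). SK, a potassium channel opened by calcium, went from 10.75 and 10.76 to 10.21 and 9.84, and from 10.30 and 10.45 to 9.76 and 9.60 (-0.71 ± 0.11, adjusted p = 0.0354). sand, a potassium leak channel, went from 10.96 and 11.10 to 9.92 and 9.88, and from 10.28 and 10.80 to 9.77 and 9.84 (-0.93 ± 0.15, adjusted p = 0.0354). In each of the 3 both old arrays lay below both young ones in each cross.

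Calx, which exchanges sodium for calcium across the cell membrane (-1.30 ± 0.24, adjusted p = 0.0507), and SERCA, the pump that returns calcium to the store (-0.42 ± 0.08, adjusted p = 0.0653), stayed outside the threshold, and for both the ages did not overlap in either cross. RyR, SK and sand each lost their call without any array other than FOXO 1-week replicate 1, with adjusted p up to 0.154, 0.139 and 0.137. With array medians centred they had 0.0582, 0.127 and 0.0533, with quantile normalization 0.0534, 0.05 and 0.0511, and with the female-specific covariate 0.101, 0.0792 and 0.0586. With that covariate 0 of the 32 genes fell and 1 rose, at a median of -0.10. Over the 15 heart and muscle markers, the summed signal was 16.27 and 16.23 in young and 16.05 and 16.02 in old control hearts, and 16.06 and 16.17 against 15.88 and 15.83 in FOXO hearts. The summed marker signal was thus lower at 5 weeks in each cross, beside the lists above.

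**Figure D4:**
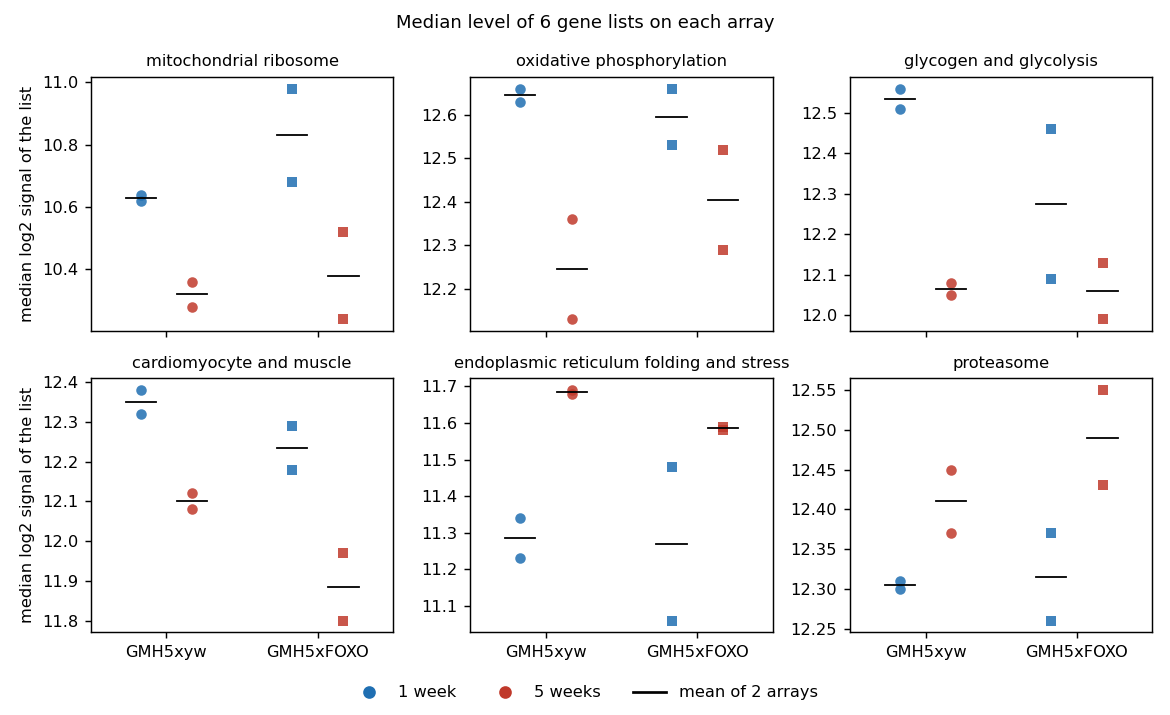
Median log2 signal (vertical axis) of 6 gene lists on each array, by cross (horizontal axis), with blue at 1 week, red at 5 weeks and black bars for the mean of 2 arrays. The muscle list was lower at 5 weeks in both crosses, from 12.38 and 12.32 to 12.12 and 12.08 in GMH5xyw and from 12.18 and 12.29 to 11.97 and 11.80 in GMH5xFOXO, and the endoplasmic reticulum list was higher on all arrays at 5 weeks than on those at 1 week.

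Genes of the mitochondrial ribosome, the respiratory chain and glycogen use had small negative changes in nearly all members, and those of the citric acid cycle did not. Of 72 proteins of the mitochondrial ribosome, which translates the respiratory chain subunits encoded in mitochondrial DNA, 70 were lower at 5 weeks in both crosses, against 3310 of all 11982 genes. In 49 the ages did not overlap in either cross, as in 1225 of all genes in this direction. The median was -0.43, yet mRpL17 was the only member to pass, with 10.29 and 10.34 against 9.57 and 9.79 in control hearts and 10.64 and 10.45 against 9.78 and 9.83 in FOXO hearts (-0.69 ± 0.10, adjusted p = 0.0258). The next were mRpL3 (-0.60 ± 0.11, adjusted p = 0.0512) and mRpS11 (-0.59 ± 0.12, adjusted p = 0.0617). The list median was -0.37 in the control cross and -0.44 in the FOXO cross. The count of members that fell depended on the fit, with 26 of 72 under the female-specific covariate (median -0.65) and 28 under arrayWeights (median -0.37).

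Of 55 subunits of the respiratory chain and ATP synthase, 52 were lower in both crosses and in 32 the ages did not overlap, against 3310 and 1225 of all 11982 genes, but 0 passed and the median was -0.24. With arrayWeights 20 fell (median -0.31), and with the female-specific covariate 0 (median -0.13). UQCR-11, of complex III, was nearest (-0.51 ± 0.09, adjusted p = 0.0502), and ATPsynbeta, the catalytic subunit of ATP synthase, had -0.37 ± 0.09 (adjusted p = 0.1). Of 22 genes of the citric acid cycle and fatty acid oxidation 2 fell, and both encode subunits of the NAD-dependent isocitrate dehydrogenase. In this list 12 members were lower and 3 higher in both crosses, at a median of -0.13 that turned to 0.10 with the female-specific covariate. Idh3a went from 12.64 and 12.73 to 11.79 and 11.99 in control hearts and from 12.59 and 12.47 to 11.72 and 11.84 in FOXO hearts (-0.77 ± 0.10, adjusted p = 0.0151). Idh3g had -0.87 ± 0.13 (adjusted p = 0.029).

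Of 17 genes of glycogen and glycolysis, 15 were lower in both crosses and 2 fell, at a median of -0.32. Both act on glycogen. Glyp, the phosphorylase that breaks it down, went from 12.51 and 12.56 to 11.80 and 11.85 in control hearts and from 12.09 and 12.37 to 11.55 and 11.60 in FOXO hearts (-0.68 ± 0.10, adjusted p = 0.0243). Glys, the synthase that builds it, went from 12.18 and 12.07 to 11.69 and 11.58, and from 11.64 and 11.70 to 11.15 and 11.01 (-0.54 ± 0.09, adjusted p = 0.0409). The glycolytic enzymes Tpi (-0.34 ± 0.10) and Gapdh1 (-0.32 ± 0.09) did not pass, and UGP, which makes UDP-glucose, was the 1 member with a positive change (0.48 ± 0.10, adjusted p = 0.0655). The calls of mRpL17, Idh3a, Idh3g and Glyp were lost without any 1 array outside the FOXO 1-week pair (adjusted p up to 0.114, 0.0813, 0.121 and 0.114), and that of Glys without FOXO 1-week replicate 2 as well (up to 0.154). With array medians centred none of these 5 passed (0.145, 0.0807, 0.122, 0.124 and 0.221). The list medians, already negative, moved down by the shift common to all probe sets. Idh3g and Glys did not pass with the female-specific covariate either (0.0663 and 0.0586).

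Few genes of protein folding and degradation, the theme of the series title, passed in the shared comparison, while the endoplasmic reticulum list leaned upward. Of 27 genes of endoplasmic reticulum folding and stress 0 passed, although 20 were higher in both crosses, 13 without overlap of the ages, and the median was 0.27. Of all 11982 genes 2662 were higher in both crosses, 1113 without overlap. With arrayWeights 12 of the 27 rose, and with the female-specific covariate 4. Ero1L, the oxidase behind disulfide bonds, had 11.11 and 11.10 against 11.73 and 11.56 in control hearts and 10.67 and 10.77 against 11.27 and 11.12 in FOXO hearts (0.51 ± 0.09, adjusted p = 0.0507). Manf, a factor secreted under folding stress (0.49 ± 0.09, adjusted p = 0.0568), and the chaperone Cnx99A (0.60 ± 0.14, adjusted p = 0.0874) followed.

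Of 28 proteasome subunits 24 were higher in both crosses, 10 of them without overlap, by small amounts, with a median of 0.09, a highest value of 0.24 and 0 past the test. With array medians centred that median was 0.01, beside -0.14 for all probe sets. Of 29 cytosolic chaperones and small heat shock proteins, 1 rose and 1 fell, at a median of 0.04 that turned to -0.05 with array medians centred. Of these, 8 fell and 1 rose with the female-specific covariate, at a median of -0.07. Hsc70-1, a constitutive Hsp70, had 10.37 and 10.34 in young and 8.97 and 8.85 in old control hearts, and 9.69 and 10.24 against 8.43 and 8.57 in FOXO hearts (-1.46 ± 0.14, adjusted p = 0.00745). It was 2.74-fold lower at 5 weeks with the same size of change in both crosses, and kept its call in all alternatives. Sgt1, a co-chaperone of Hsp90, rose from 10.71 and 10.80 to 11.72 and 11.60 in control hearts and from 10.71 and 10.97 to 11.50 and 11.43 in FOXO hearts (0.76 ± 0.11, adjusted p = 0.0266). It lost the call without any 1 array outside the FOXO 1-week pair (up to 0.116) and with array medians centred (0.251).

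None of 28 autophagy genes, 36 genes of the lysosome and its proton pump or 28 proteins of the cytosolic ribosome passed, at medians of 0.12, 0.09 and 0.02, of which the last turned to -0.07 with array medians centred. Among autophagy genes 4 rose with the female-specific covariate, and among lysosomal genes 2 rose and 2 fell. Uvrag, which promotes autophagosome maturation, had 0.47 ± 0.10 (adjusted p = 0.0677), and Cln7, a lysosomal membrane protein, 0.96 ± 0.18 (adjusted p = 0.052). ref(2)P, the cargo receptor that gathers ubiquitinated proteins, had 0.27 ± 0.09 (adjusted p = 0.182) from levels above 13. The cytosolic ribosome proteins spanned -0.15 to 0.08, and in 0 of them did the ages lie apart in both crosses.

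**Figure D5:**
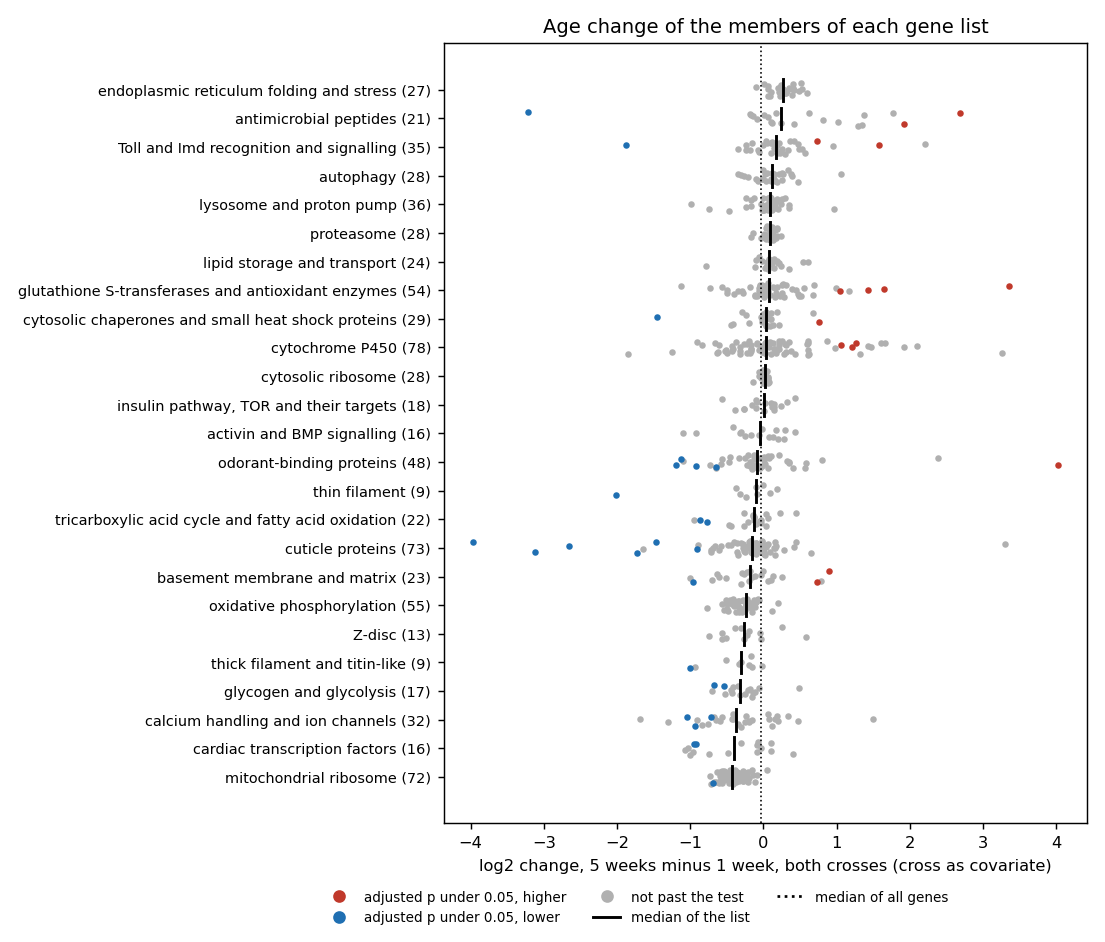
Log2 change from 1 to 5 weeks over both crosses (horizontal axis) of the members of 25 gene lists (rows, with the number measured), with red for members that rose, blue for those that fell, grey for those not past the test, black bars for list medians and a dotted line for the median of all genes. Mitochondrial ribosome members crowd around -0.43, while cuticle, antimicrobial and P450 members spread widely around medians of -0.16, 0.24 and 0.03.

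Stress and detoxification genes rose as single members. Of 54 glutathione S-transferases and antioxidant genes, 4 rose and 0 fell (7.41% against 1.21% of all genes that rose), at a median of 0.08 that turned to -0.01 with array medians centred. With the female-specific covariate 14 rose and 3 fell, and with arrayWeights 13 and 3. Beside GstD5 these were the metallothioneins MtnD and MtnB, small proteins that bind copper and other metals, and se, an omega-class transferase that makes an eye pigment precursor. MtnD had 10.82 and 10.95 in young and 12.82 and 12.59 in old control hearts, and 11.33 and 11.21 against 12.77 and 12.72 in FOXO hearts (1.64 ± 0.12, adjusted p = 0.00492). MtnB rose by 1.42 ± 0.20 (adjusted p = 0.0231) and se by 1.04 ± 0.15 (adjusted p = 0.0241). MtnD kept its call in all alternatives, and MtnB and se lost theirs without any 1 array outside the FOXO 1-week pair (up to 0.105 and 0.0957) and with array medians centred (0.0613 and 0.0679).

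Of 78 cytochrome P450 genes, enzymes that oxidise steroids, fatty acids and toxins, 3 rose and 0 fell, at a median of 0.03 that turned to -0.06 with array medians centred. With the female-specific covariate 27 rose and 1 fell (median 0.41), and with arrayWeights 13 rose and 11 fell. Cyp4p2 went from 11.52 and 11.49 to 12.75 and 12.62 in control hearts and from 11.06 and 11.23 to 12.57 and 12.40 in FOXO hearts (1.26 ± 0.10, adjusted p = 0.00492), and kept its call in all alternatives. Cyp4ad1 (1.06 ± 0.15, adjusted p = 0.024) and Cyp305a1 (1.21 ± 0.18, adjusted p = 0.0256) rose as well. Cyp304a1 had a change of 3.26 ± 0.62 that did not pass (adjusted p = 0.0538), with 1.94 in the control cross and 4.58 in the FOXO cross. Cyp4ad1 lost its call without any 1 array outside the FOXO 1-week pair (up to 0.102), and Cyp305a1 without these except FOXO 5-week replicate 1 (up to 0.111), with array medians centred (0.124) and with the female-specific covariate (0.0545).

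Immune genes changed in both directions. Of 21 antimicrobial peptide genes, AttD and CecB rose and Drsl4 fell, at a median of 0.24. With the female-specific covariate 9 rose and 0 fell (median 1.17), and with arrayWeights 7 rose and 1 fell. CecB, a cecropin that lyses bacteria, had 7.99 and 7.89 in young and 10.31 and 9.70 in old control hearts, and 9.19 and 8.06 against 10.79 and 10.01 in FOXO hearts (1.92 ± 0.30, adjusted p = 0.0329). Drsl4, of the antifungal drosomycin family, had 8.87 and 8.39 against 6.65 and 6.72, and 10.18 and 11.09 against 5.94 and 6.35 (-3.22 ± 0.53, adjusted p = 0.0386). It fell in both crosses but further in FOXO hearts, and is therefore outside the shared set. The diptericin DptB had 11.96 and 11.86 in young and 12.84 and 12.68 in old control hearts and 9.78 and 12.57 against 13.23 and 12.94 in FOXO hearts (1.38 ± 0.58, adjusted p = 0.295), so that its young FOXO replicates lay 2.79 apart.

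Of 35 genes listed under Toll and Imd recognition and signalling, 2 rose and 1 fell, at a median of 0.18. The 1 that fell was TotC, above, a secreted stress peptide and not a recognition or signalling component. With the female-specific covariate 13 rose and 1 fell (median 0.53), and with arrayWeights 9 and 1. spirit, a serine protease upstream of Toll, went from 6.49 and 6.26 to 8.23 and 8.35 in control hearts and from 6.33 and 6.99 to 7.59 and 8.22 in FOXO hearts (1.58 ± 0.24, adjusted p = 0.0271). key, the regulatory subunit of the kinase complex of the Imd pathway, rose by 0.73 ± 0.11 (adjusted p = 0.0286). PGRP-SC2, an amidase that degrades peptidoglycan, had 2.21 ± 0.48 without passing (adjusted p = 0.0769). CecB, Drsl4, spirit and key lost their calls without 1 array, with adjusted p up to 0.125, 0.126, 0.114 and 0.111. This held for each array outside the FOXO 1-week pair, with FOXO 1-week replicate 2 added for CecB and FOXO 5-week replicate 1 left aside for spirit. With array medians centred the 4 had 0.0598, 0.0563, 0.0826 and 0.157. CecB and Drsl4 did not pass with the female-specific covariate (0.0915 and 0.0704), nor Drsl4 and spirit with quantile normalization (0.0592 and 0.05).

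Cuticle protein genes were the list with most members that fell. Of 73, 6 fell (8.22% against 0.976% of all genes) and 0 rose, at a median of -0.16. Cpr49Ae had 11.66 and 11.50 in young and 8.57 and 8.41 in old control hearts, and 10.87 and 11.73 against 6.62 and 6.28 in FOXO hearts (-3.97 ± 0.39, adjusted p = 0.00833), a 15.6-fold lower signal at 5 weeks. It fell further in FOXO hearts, so that the shared set holds the other 5. Beside the 3 named above, Cpr97Eb fell by 1.46 ± 0.19 (adjusted p = 0.0181) and Cpr92F by 0.91 ± 0.13 from signals near the floor, at most 4.23. Cpr97Eb and Cpr92F lost their calls without any 1 array outside the FOXO 1-week pair (up to 0.0892 and 0.112), and Cpr92F with array medians centred (0.124). With arrayWeights 13 of the list fell and 2 rose. Cpr49Ae, the brightest of the 6 when young, kept its call in all alternatives.

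Of 6 tracheal markers, some of which act on chitin as well, 2 fell and 1 of the others had a positive change. The summed signal was 10.12 and 9.97 in young against 9.47 and 9.35 in old control hearts, and 9.70 and 10.23 against 8.96 and 9.12 in FOXO hearts. serp, a chitin deacetylase, had 8.24 and 8.12 against 7.10 and 7.23, and 8.17 and 8.15 against 6.99 and 7.18 (-1.04 ± 0.09, adjusted p = 0.00707). btl, the FGF receptor of tracheal cells, fell by 0.98 ± 0.13 (adjusted p = 0.0171), a call lost without any 1 array outside the FOXO 1-week pair (up to 0.0924) and with array medians centred (0.0656). The part of tracheal tissue in the fall of cuticle genes was not tested.

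Of 48 odorant-binding proteins, small secreted carriers found in many tissues, 4 fell and 1 rose, at a median of -0.09. These counts were 2 and 3 with the female-specific covariate, at a median of 0.07. The neighbours Obp57a (-1.20 ± 0.17, adjusted p = 0.0223), Obp57b (-0.92 ± 0.16, adjusted p = 0.0476) and Obp57c (-1.12 ± 0.15, adjusted p = 0.0188) fell, as did Obp83cd (-0.64 ± 0.11, adjusted p = 0.0436). Obp57c had 10.81 and 10.72 in young and 9.59 and 9.82 in old control hearts, and 10.48 and 11.01 against 9.42 and 9.71 in FOXO hearts. Obp56d rose, from 6.79 and 7.02 to 9.03 and 9.39 in control hearts and from 5.58 and 6.34 to 11.67 and 11.75 in FOXO hearts (4.03 ± 0.68, adjusted p = 0.0408), further in the FOXO cross. All 5 calls were lost without any 1 array outside the FOXO 1-week pair (up to 0.105, 0.162, 0.0924 and 0.16 for those that fell, in the order above, and 0.138 for Obp56d, which was lost without FOXO 1-week replicate 2 too). With array medians centred, Obp57a, Obp57b, Obp57c and Obp83cd had 0.0613, 0.113, 0.0564 and 0.173. Obp57a, Obp57b and Obp83cd did not pass with the female-specific covariate (0.0581, 0.126 and 0.109), nor the last pair with quantile normalization (0.078 and 0.084).

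Matrix genes moved both ways. Of 23 genes of basement membrane and matrix 2 rose and 1 fell, at a median of -0.18 that turned to 0.06 with the female-specific covariate, where 1 rose and 3 fell. trol, the perlecan of the basement membrane, had 11.45 and 11.42 in young and 10.58 and 10.69 in old control hearts, and 11.59 and 11.24 against 10.17 and 10.39 in FOXO hearts (-0.97 ± 0.13, adjusted p = 0.0203). wb, a laminin alpha chain, rose from 10.20 and 10.09 to 10.88 and 10.78, and from 9.71 and 10.11 to 10.71 and 10.69 (0.74 ± 0.12, adjusted p = 0.0329). scb, an integrin alpha subunit, rose by 0.89 ± 0.16 (adjusted p = 0.0444). These calls were lost without any 1 array outside the FOXO 1-week pair (trol up to 0.0924, wb 0.134, scb 0.161, and scb without FOXO 1-week replicate 2 too) and with array medians centred (0.092, 0.196 and 0.235). wb did not pass with quantile normalization (0.0512), nor scb with the female-specific covariate (0.114).

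Of 29 markers of gut and Malpighian tubule, 5 rose, 4 digestive enzymes and a lysozyme, and 0 fell (17.2% against 1.21% of all genes). Over all 29 members the list did not move one way, with 9 below 0. The median was 0.18 over both crosses, 0.41 in the control cross and -0.15 in the FOXO cross. Over both crosses it was -0.03 with the female-specific covariate. Many members were dim. Without the dimmest 40% of probe sets 12 members were left, at a median of 0.68, and 5 of these rose. The serine proteases Jon65Aiii and alphaTry led them. Jon65Aiii had 5.51 and 5.04 in young and 7.91 and 7.46 in old control hearts, and 5.54 and 4.86 against 7.08 and 7.23 in FOXO hearts (2.18 ± 0.22, adjusted p = 0.00855). alphaTry rose by 1.96 ± 0.20 (adjusted p = 0.00897). The lysozyme LysX rose by 3.31 ± 0.35 (adjusted p = 0.0105), from 7.08 and 6.77 to 9.30 and 9.47 in control hearts and, further, from 6.04 and 6.23 to 10.11 and 10.47 in FOXO hearts.

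The maltase Mal-A6 (1.14 ± 0.19, adjusted p = 0.0404) and Jon65Aiv (0.94 ± 0.16, adjusted p = 0.0423) rose too. The summed signal of the gut list was 10.68 and 10.67 in young and 11.61 and 11.67 in old control hearts, and 10.14 and 10.39 against 11.35 and 11.60 in FOXO hearts, so the sum was higher with age in both crosses. The median signal of the list went from 4.85 and 4.42 to 5.32 and 5.16 in control hearts, and in FOXO hearts it was 4.96 and 4.61 when young and 4.48 and 4.43 when old. The part of gut tissue in the other genes that rose was not tested. Jon65Aiii kept its call in all alternatives. alphaTry lost it without control 5-week replicate 1 (adjusted p = 0.052), LysX without FOXO 5-week replicate 1 (adjusted p = 0.0513), Mal-A6 without any 1 array outside the FOXO 1-week pair (up to 0.145) and Jon65Aiv without any array other than FOXO 1-week replicate 1 (up to 0.146). Neither Mal-A6 nor Jon65Aiv passed with quantile normalization (0.0755 and 0.1) or array medians centred (0.124 and 0.231), nor Jon65Aiv with the female-specific covariate (0.123).

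Among markers of the remaining cell types, few passed. Of 18 male accessory gland genes 4 fell and 0 rose. Beside Acp53Ea and Acp53C14b these were Acp26Ab (-0.84 ± 0.14, adjusted p = 0.0386) and Acp53C14a (-0.90 ± 0.16, adjusted p = 0.0473). The list's summed signal was 11.96 and 11.84 in young and 11.71 and 11.67 in old control hearts and 11.41 and 11.57 against 11.57 and 11.65 in FOXO hearts, so that the sum was lower with age in the control cross and not in the FOXO cross. The list median was lower with age in both, from 5.95 and 5.38 to 4.27 and 4.39 in control hearts. In FOXO hearts it went from 4.38 and 5.23 to 3.85 and 3.96. Of the 18 members 13 were lower in both crosses, against 3310 of all 11982 genes. Most members were dim. Without the dimmest 40% of probe sets 7 of the 18 were left, and the 4 genes called here were not among them. With these 7 the median change was -0.23, against -0.65 for all 18, and 1 of them fell. All 4 calls were lost without any 1 control array or FOXO 5-week replicate 1 (up to 0.143 for Acp26Ab and 0.16 for Acp53C14a, which were lost without FOXO 5-week replicate 2 too, and Acp53C14a without FOXO 1-week replicate 2). Acp26Ab and Acp53C14a did not pass with quantile normalization (0.075 and 0.0808) or the female-specific covariate (0.0969 and 0.146).

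Of 11 fat body and oenocyte genes 2 rose. fit, a secreted fat body protein with female-biased expression, had 8.83 and 8.80 in young and 9.89 and 10.11 in old control hearts, and 10.06 and 9.39 against 10.89 and 10.96 in FOXO hearts (1.19 ± 0.16, adjusted p = 0.0188). Fst, a gene of the cold response, rose by 2.60 ± 0.37 (adjusted p = 0.0239) and further in the control cross. Of 22 hemocyte genes PPO2, a prophenoloxidase of crystal cells, fell, from 11.65 and 11.72 to 10.66 and 10.80 in control hearts and from 11.20 and 11.89 to 10.59 and 10.77 in FOXO hearts (-0.91 ± 0.16, adjusted p = 0.0458). The hemocyte list's summed signal lay between 15.10 and 15.51 at 1 week and between 15.20 and 15.32 at 5 weeks, and that of the fat body list between 15.75 and 15.87 and between 15.81 and 15.89.

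Of 24 oocyte and nurse cell genes tud, a germ plasm protein, fell by 0.49 ± 0.09 (adjusted p = 0.0464), and it was the only one of these markers to pass. None of 15 eggshell, 11 pericardial nephrocyte or 18 neuron genes passed, at medians of -0.23, 0.15 and -0.06, nor did any of the 5 female-specific transcripts, at a median of 5.13, since FOXO 1-week replicate 1 had them at the level of old hearts. fit lost its call without any 1 array outside the FOXO 1-week pair (up to 0.0924), as did PPO2 (up to 0.162). Fst kept it only without FOXO 5-week replicate 2 or either FOXO 1-week array (otherwise up to 0.103), and tud only without FOXO 1-week replicate 1 (otherwise up to 0.168). With array medians centred fit, PPO2, Fst and tud had 0.0679, 0.0923, 0.054 and 0.213. With the female-specific covariate PPO2, Fst and tud had 0.104, 0.0663 and 0.061, and with quantile normalization Fst and tud had 0.0501 and 0.0532.

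The foxo transcript itself did not pass. It had 10.68 and 10.75 in young and 10.32 and 10.44 in old control hearts, and 10.46 and 10.87 against 10.22 and 10.24 in FOXO hearts (-0.38 ± 0.12, adjusted p = 0.164). Old arrays lay below young ones in each cross, and the age change differed by -0.10 between the crosses (adjusted p = 0.825). The sources used here do not say whether its probe set detects the transgene. None of the 18 genes of the insulin pathway, TOR and their targets passed, at a median of 0.01 that turned to -0.08 with array medians centred and to -0.01 with quantile normalization. The stress sensor Sesn (-0.27 ± 0.10, adjusted p = 0.245) and the lipase bmm (0.25 ± 0.11, adjusted p = 0.338), a FOXO target, were among them. None of 16 genes of activin and BMP signalling passed, with the ligand mav at -1.10 ± 0.26 (adjusted p = 0.0959) and the ligand myo at -0.33 ± 0.12 (adjusted p = 0.239), and none of 24 genes of lipid storage and transport, with the lipocalin NLaz at 0.53 ± 0.13 (adjusted p = 0.0959).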

How the data were processed

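Transcript levels were measured on 8 Affymetrix GeneChip arrays. The values used are the log2 signals deposited by the authors, 1 per probe set; their range shows the log2 scale, and the sources used here do not give the methods of summarisation and normalization. limma is named in the submitters' processing notes, with no version. Gene names came from the platform annotation: 13647 probe sets had 1 symbol, 402 several and 4720 none, and only the first kind is named.

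All tests used limma 3.58.1 in R 4.3.3 (lmFit and eBayes, two-sided, Benjamini-Hochberg over 18769 probe sets, threshold 0.05). Age over both crosses came from a model of cross plus age with 5 residual degrees of freedom, which counts a difference of the age change between the crosses as spread. Changes within a cross and their difference (GMH5xFOXO minus GMH5xyw) came from a fit of 4 group means, which leaves 4 residual degrees of freedom. Errors are standard errors of the log2 change. The procedure was run on simulated data in which the age change did not differ between the crosses. It recovered 64% of changes of 1 log2 unit and 90% of changes of 2, with 5 false calls among 159. In the real data the age change differed in 1766 probe sets, so these rates do not carry over.

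Named were the 15 highest and 15 lowest shared genes by the smaller change of the crosses, foxo, and from 25 pathway lists and 12 marker lists up to 6 members with the smallest p and any that passed. Members, lists and tests were chosen with earlier results of these data known. Alternatives covered scaling, dim probe sets, eBayes settings, array weights, probe sets per gene, the threshold, the model, marker covariates and arrays left out. Whether the replicates are separate sets of flies is not stated in the labels; the p-values thus reflect the spread among these samples alone, and it may be technical. The number of arrays limits the precision.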

Additional observations from a re-analysis of the deposited data

Results flagged for a closer look

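In 5 genes named above, the age change passed the test over both crosses while its size differed between the crosses by the test of that difference (limma, model with 1 mean per group, Benjamini-Hochberg over all probe sets), given as GMH5xFOXO minus GMH5xyw. Drsl4 fell in both and further in FOXO hearts (difference -2.55, adjusted p = 0.013). Cpr49Ae did likewise (-1.76, adjusted p = 0.04). Obp56d rose in both and further in FOXO hearts (3.44, adjusted p = 0.00089), as did LysX (1.7, adjusted p = 0.0066). Fst rose in both and further in control hearts (-1.8, adjusted p = 0.006). In each of these 5 genes the arrays of the 2 ages did not overlap in either cross.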

How the results depend on the processing

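The count of probe sets changed over both crosses (352, shared 335) stayed within 1.5 times under quantile normalization, without the dimmest 40% of probe sets, with trend and robust eBayes and with 1 probe set per gene. It was 121 (shared 85) with array medians centred, 2463 (1461) with arrayWeights, 870 (837) at an adjusted p under 0.1, 2165 (1130) as the average of the crosses, 2606 (926) with the female-specific covariate and 2055 (1078) with the spermatogenesis covariate. Without both FOXO 1-week arrays, which leaves the control cross alone, it was 3279, and without both control 1-week arrays, chosen after seeing the data, 2021. Leaving out each array gave 56 to 945 (shared 55 to 851). The replicate numbers share only a number (deviations correlated at 0.01 to 0.33 between groups), and a replicate block gave 213 (shared 210). The share that rose, 56.2%, was 62.0% with centring, 66.5% as the average, 75.6% without the control 1-week arrays, 45.5% without the FOXO ones and 37.1% with the female-specific covariate. In single crosses, centring moved the median of all probe sets from 0.05 to 0.21 (control) and from -0.15 to -0.49 (FOXO). It took the FOXO count from 2861 to 9415 (61.8% to 16.7% higher), the count of differing changes from 1766 to 8997 (77.3% to 14.6% higher; 57.7% with quantile normalization) and the control split from 33.9% to 52.6% higher. Arrays left out gave 605 to 3279 for the control cross, 1670 to 6698 for FOXO and 1322 to 5541 for the difference, and only the 4 arrays of the cross gave 3627 and 1421; the causes were not tested. Of 30 named genes 15 kept their call in all 21 alternatives, of 77 with called list members 21 did, and none reversed. In the fits with arrays left out a reversal of these genes was not possible, because their ages did not overlap in either cross. Calls were lost for 35 of these genes with centring, 18 with quantile normalization, 23 with the block and 25 with the female-specific covariate; foxo passed with arrayWeights alone (adjusted p = 0.0327).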

Other observations

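Genes outside the lists and the ranking, chosen after their values were seen, passed over both crosses as well. Of 9 measured SmydA genes, which encode SET and MYND domain proteins, 5 fell (SmydA-2, SmydA-3, SmydA-4, SmydA-5 and SmydA-9), at a family median of -0.87. SmydA-3 had 9.41 and 9.41 in young and 8.01 and 7.91 in old control hearts, and 8.51 and 9.04 against 6.82 and 7.34 in FOXO hearts (-1.57 ± 0.17, adjusted p = 0.0108). SmydA-7, at 0.15 ± 0.19, was the only member with a positive change.

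Beside Nazo, Sting, which senses cyclic dinucleotides in antiviral defence, rose by 1.28 ± 0.15 (adjusted p = 0.0138), from 9.94 and 10.03 to 11.33 and 11.17 in control hearts and from 9.73 and 10.25 to 11.49 and 11.10 in FOXO hearts. Charon, a nuclear cofactor of immune transcription, rose by 1.71 ± 0.13 (adjusted p = 0.00492). Rel, the NF-kappaB factor of the Imd pathway, had 0.19 ± 0.09 (adjusted p = 0.355). The transcription factor salm rose by 1.68 ± 0.16 (adjusted p = 0.00818), from 8.57 and 8.22 to 10.07 and 9.87 in control hearts and from 8.70 and 8.12 to 10.27 and 10.11 in FOXO hearts. Rpt3R, a testis copy of a proteasome subunit, rose by 2.17 ± 0.20 (adjusted p = 0.00707), and the DNA repair genes mus302 and Ku80 by 1.84 ± 0.21 and 0.93 ± 0.17.

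Further mitochondrial genes fell, among them the phosphate carrier Mpcp1 (-1.17 ± 0.15, adjusted p = 0.0153), the translation factors mEFTu1 (-0.67 ± 0.11) and mRF1 (-0.76 ± 0.13) and the assembly factors Cchl (-0.61 ± 0.10) and Cox10 (-0.54 ± 0.09). Inx2, a gap junction innexin, fell from 10.38 and 10.35 to 9.33 and 9.45 in control hearts and from 10.32 and 10.44 to 9.73 and 9.54 in FOXO hearts (-0.86 ± 0.10, adjusted p = 0.0144). The serotonin receptor 5-HT2A (-1.17 ± 0.21) and the adenylyl cyclase rut (-1.01 ± 0.18) fell, with adjusted p of 0.0471 and 0.0453. The alternatives were not run for these genes one by one.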
